A study of Mus musculus with 12 samples.

Results

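Doxorubicin (DOX), an anthracycline used against many cancers and limited by its damage to the heart, was compared with no treatment (Unt) in H9c2(2-1) cells after 6 h. H9c2 is a myoblast line originally derived from embryonic rat heart, and its label gives the genotype as WT for all libraries. The series holds 12 mRNA libraries in 4 groups of 3, and the 6 described here are the 3 Unt libraries, which received no agent, and the 3 DOX libraries, which received DOX alone. The other groups received DOX with a further agent and are not described here. The members are the genes with at least 1 FPKM (fragments on a gene divided by its length in kilobases and by a library factor) in at least 3 of these 6 libraries, and they numbered 11514 of the 54345 genes listed. The dose of DOX given to the sequenced cells is not given in the sources used here, nor whether the 3 libraries of a group came from separate cultures, so p-values measure only the spread between these libraries. The labels name the organism as mouse and the genes carry mouse identifiers, while the study describes the line as rat.

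DOX slips between the bases of DNA and traps topoisomerase II on cut DNA, which leaves double strand breaks, and it also displaces histones and slows the copying of DNA into RNA. Its quinone ring cycles electrons to oxygen, a reaction that iron promotes, and the heart is known for its low reserve of antioxidant enzymes. In most mammalian cells the mRNAs of immediate early genes and of many transcription factors are short-lived, whereas those of ribosomal proteins, glycolytic enzymes and the cytoskeleton are long-lived.

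The reads on genes numbered 17724150 to 18509705 in Unt and 17882186 to 19365119 in DOX. The deposited FPKM contain a library factor that lay at 1.32 to 1.38 times the gene reads in Unt and at 0.647 to 0.784 times the gene reads in DOX, so that a gene holding the same share of gene reads in both groups was listed 1.93-fold higher in DOX. A gene holding the same share of the summed FPKM was listed 2.58-fold higher. Directions are therefore given on the deposited scale and also after 3 other scalings. TPM scaling sets the FPKM of each library to the same sum, and summed-read scaling divides by the reads on all genes. Quantile normalization gives every library the same distribution, so a gene of the same rank in every library gets a change of 0 whatever its rise. The median log2 fold change of the 11514 genes was 0.003 as deposited, -1.08 with TPM scaling, -0.76 with summed-read scaling and 0.017 with quantile normalization. Pearson correlations of log2(FPKM + 1) were 0.9864 to 0.9933 within a group and 0.8335 to 0.8696 between the groups.

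Markers of mature cardiomyocytes, endothelium and epithelium were near 0 in both groups, whereas some fibroblast and neural markers were present. Of 12 myoblast markers, 4 reached a mean of 1 FPKM, namely Acta2, Vim, Gata4 and Des, and Myog was at 0 in all 6 libraries. The summed FPKM of these 12 genes was 494.7 to 605 in Unt and 2359 to 3173 in DOX. None of the 10 markers of mature cardiomyocytes, 6 endothelial markers and 5 epithelial markers reached a mean of 1 FPKM. Of 10 fibroblast markers, 6 did so (Fn1, Col1a1, Col3a1, Col1a2, Pdgfrb and Postn), with a summed FPKM of 296 to 319 in Unt and 666 to 826 in DOX, and Lum was at 0 throughout. Among 6 neural markers Nes, Tubb3 and Map2 were present, with sums of 48.4 to 53.3 in Unt and 187.5 to 201.5 in DOX, and Snap25 was at 0. Of the 6 blood markers, Cd68 alone reached a mean of 1 FPKM. The sums of the myoblast, fibroblast and neural lists were higher in every DOX library on the deposited scale, on which an unchanged share of the summed FPKM is listed 2.58-fold higher, and their part in the results was not tested. Members did not move together. Acta2 (mean FPKM 294 in Unt and 1831 in DOX) and Vim (243 and 1042) made up most of the myoblast sum, whereas Gata4 (10.3 and 3.35), Des (1.46 and 0.552) and Pdgfrb (12.2 and 8.35) were lower in every DOX library.

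DOX changed most of the measured transcriptome. With limma on log2(FPKM + 1), 4911 genes were higher and 4806 lower at a Benjamini-Hochberg adjusted p under 0.05, which is 42.7% and 41.7% of those tested (84.4% together), and 1797 genes did not pass. Counts given below for lists and families are to be read against these shares. At least 2-fold changes were found for 2722 genes that rose and 2287 that fell. The libraries of the groups did not overlap for 9881 genes (85.8%), and 9599 of these also passed the test. A total of 802 genes reached 1 FPKM in all 3 Unt libraries and in no DOX library, and 294 did the reverse. The near-even split is largely fixed by the deposited factor, which sets the median change near 0. It moved with the scaling. TPM scaling left 1525 higher and 8482 lower (13.2% and 73.7%, 86.9% together), summed-read scaling 2567 and 7374 (22.3% and 64%, 86.3% together), and quantile normalization 4701 and 4555 (40.8% and 39.6%, 80.4% together). These are values of bulk RNA, in which fewer cells of a type and less RNA per cell cannot be told apart, and no total amount of RNA was measured.

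In DOX a smaller set of genes held more of the reads. The 10 genes with most reads in a library took 3.78% ± 0.239 of gene reads in Unt and 7.14% ± 0.115 in DOX (SD, n = 3), and the top 100 rose from 13.6% ± 0.432 to 25.4% ± 0.761 (SD, n = 3). The top 1000 genes held 45.0% ± 0.626 in Unt and 66.4% ± 1.39 in DOX (SD, n = 3). Eef1a1, which brings tRNAs to the ribosome, and mt-Co1, a catalytic subunit of complex IV, were the leading genes of both groups. Eef1a1 took 0.823%, 1.03% and 0.865% of the reads in Unt and 1.40%, 1.51% and 1.47% in DOX. The share of mt-Co1 was 0.533%, 0.708% and 0.562% in Unt and 1.59%, 1.60% and 1.58% in DOX. Both shares were higher in every DOX library than in any Unt library, as was that of Pkm, a glycolytic enzyme (0.261% against 0.693% on average). By contrast Rad21, a cohesin subunit, fell from a mean of 0.293% to 0.126%, although its FPKM of 521, 524 and 492 in Unt and 370.0, 446 and 469 in DOX did not pass the test (adjusted p = 0.070). It was called lower under each of the 3 other scalings (log2 -1.63 with TPM scaling), and also without DOX replicate 1 (-0.16) or DOX replicate 3 (-0.33). For all of these classes of genes the two-sided exact permutation test gave p = 0.1, the smallest that the 20 relabellings of 3 against 3 libraries allow.

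**Figure D1:**
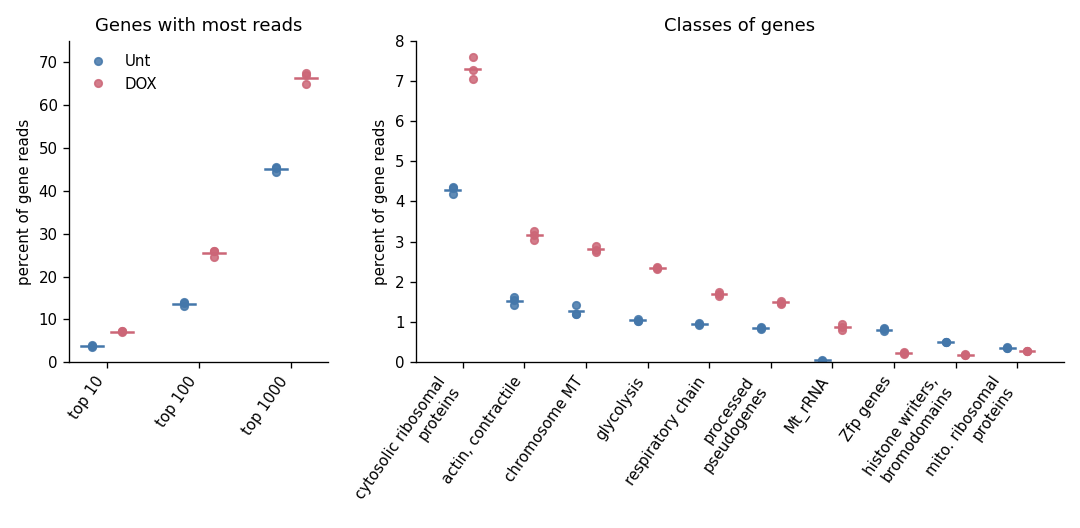
Percent of gene reads (y axis) held by the 10, 100 and 1000 genes with most reads of each library (left) and by classes of genes (right), with 1 point per library, Unt in blue and DOX in red, and lines at the group means. Ribosomal proteins, actin genes, chromosome MT and glycolysis took more of the reads in every DOX library, whereas Zfp genes and histone-modifying genes took less.

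Among protein-coding genes with a mean of at least 10 FPKM in the higher group, Trib3 fell furthest. Trib3, a pseudokinase of the integrated stress response that binds AKT, had FPKM of 143, 149 and 168 in Unt and 3.97, 1.43 and 1.14 in DOX. Every DOX library lay far below every Unt library, and the log2 fold change was -5.70 ± 0.27 (SE, 3 libraries a group, adjusted p = 6.7e-07), a 70.3-fold fall in mean FPKM. Gadd45a, a growth arrest gene that responds to DNA damage, had FPKM of 38.4, 36.3 and 34.0 in Unt and 1.68, 0.928 and 0.588 in DOX (log2 -4.20 ± 0.17). H1f0, a linker histone of resting cells, fell from 120.5, 115 and 118 FPKM to 7.92, 6.03 and 6.52 (log2 -3.93 ± 0.10). The nearest libraries of the groups differed 36.0-fold in Trib3, 20.2-fold in Gadd45a and 14.5-fold in H1f0. The other large falls were Chac1 (log2 -3.94 ± 0.43), a glutathione-degrading enzyme, the transcription factors Cebpb (-3.86 ± 0.17) and Atf4 (-3.67 ± 0.15), the matrix signal Cyr61 (-3.73 ± 0.25), the bHLH inhibitor Id3 (-3.63 ± 0.12), the mTORC1 inhibitor Ddit4 (-3.59 ± 0.34) and the cyclin-related gene Fam58b (-3.60 ± 0.20). All 10 stayed lower with quantile normalization, and also with TPM and summed-read scaling, which move genes down and could not undo a fall.

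Among protein-coding genes with a mean of at least 10 FPKM in the higher group, S100a4 rose furthest. S100a4, a calcium-binding protein of motile cells, had FPKM of 3.88, 6.15 and 5.61 in Unt and 59.8, 94.2 and 84.2 in DOX. The nearest libraries of the groups lay 9.73-fold apart, with a log2 fold change of 3.69 ± 0.19 (adjusted p = 7.1e-07). Tfrc, the transferrin receptor that takes up iron, had FPKM of 21.6, 25.2 and 22.2 in Unt and 172, 216 and 249 in DOX (log2 3.14 ± 0.14), and Idi1, an isomerase of the mevalonate pathway, had FPKM of 5.74, 5.42 and 4.79 in Unt and 42.9, 54.0 and 53.7 in DOX (log2 3.01 ± 0.11). S100a6 (2.91 ± 0.19), the phospholipid-binding Anxa1 (2.98 ± 0.14), Sh3bgrl (2.96 ± 0.20), the mitochondrial leucyl-tRNA synthetase Lars2 (2.91 ± 0.19), the actin-severing Dstn (2.86 ± 0.13) and the histone Hist1h4i (2.85 ± 0.12) followed on the log2 scale. Rps27rt was also among the 10 (3.09 ± 0.21), but it is identical to Rps27 over 341 bases, and reads of this pair cannot be assigned with certainty. All 10 stayed higher under each of the 3 other scalings.

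**Figure D2:**
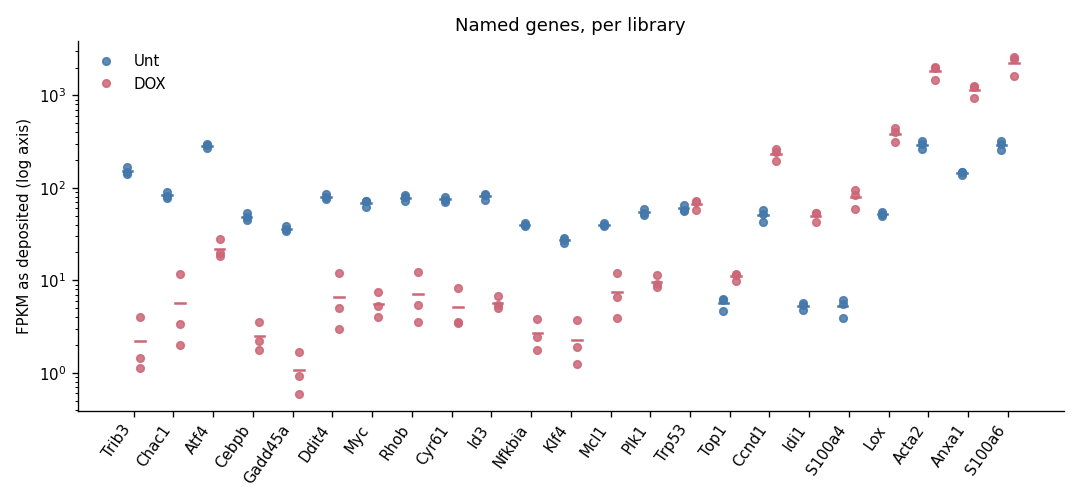
FPKM as deposited (y axis, log scale) of named genes, with 1 point per library, Unt in blue and DOX in red, and lines at the group means. Trib3 drops from 143 to 168 FPKM in Unt to at most 3.97 in DOX, S100a4 rises to at least 59.8, and Trp53 overlaps between the groups.

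Genes of the integrated stress response moved both ways as deposited and mostly downwards under other scalings. In this response phosphorylated eIF2 raises the translation of Atf4, and ATF4 then switches on amino acid and stress genes. Of the 18 genes listed for it, 6 were higher, 11 lower and 1 not called, with a median log2 fold change of -1.22 (-2.19 with TPM scaling). With TPM scaling none was higher and 16 were lower, and with summed-read scaling 2 were higher and 15 lower. Both of these scalings move genes down. With quantile normalization all 18 were lower. Atf4 itself had FPKM of 271, 294 and 295 in Unt and 27.7, 19.7 and 18.4 in DOX, a 13.1-fold fall. Phgdh and Psat1, enzymes of serine synthesis, and Shmt2, which converts serine to glycine in the mitochondrion, had log2 fold changes of 1.40 ± 0.12, 1.48 ± 0.11 and 1.06 ± 0.13, which turned to -0.49, -0.26 and -0.70 with quantile normalization, and Shmt2 was also lower with TPM scaling (-0.31). The letters TGATGNAA, the core of sites that ATF4 dimers can bind, were searched on both strands from 250 bases before to 50 after each RefSeq start (GRCm38). They stood in 7 of the 18 genes and in 7 of the 21 windows of these genes, compared with 3.97% of 32851 such windows of the whole annotation. The 18 genes were listed as genes of this response, so the share describes the list and is not a result of these libraries. Of the 11 genes that fell, 5 held these letters, as did 2 of the 6 that rose on the deposited scale (Asns and Nupr1, named for the letters as are Vldlr and Fgf21). The 30 bases around each match, with the matching letters in capitals, are shown because they are what these 7 promoters share:
Asns (chr6:7693214-7693243, minus strand): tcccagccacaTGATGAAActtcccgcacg
Nupr1 (chr7:126625562-126625591, minus strand): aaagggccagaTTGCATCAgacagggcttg
Trib3 (chr2:152344028-152344057, minus strand): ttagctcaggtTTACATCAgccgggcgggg
Chac1 (chr2:119351038-119351067, plus strand): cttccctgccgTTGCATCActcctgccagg
Vldlr (chr19:27216809-27216838, plus strand): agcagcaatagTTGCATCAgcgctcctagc
Fgf21 (chr7:45615611-45615640, minus strand): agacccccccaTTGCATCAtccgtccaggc
Slc7a11 (chr3:50443661-50443690, minus strand): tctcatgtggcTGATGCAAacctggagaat
The matches began between position -200 and position 14 from the start, and a match is not a bound site. These are mouse sequences.

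Immediate early genes, which growth factors and stress induce within minutes, fell as a group. Of the 25 measured, 4 were higher, 18 lower and 3 not called, at a median of -1.25 on the log2 scale (-2.19 with TPM scaling). Myc, a transcription factor for growth, had FPKM of 62.8, 72.1 and 71.3 in Unt and 7.42, 5.25 and 3.98 in DOX and Rhob, a small GTPase of endosomes, had FPKM of 72.6, 79.3 and 83.6 in Unt and 12.4, 5.34 and 3.57 in DOX. In both genes all DOX values lay below all Unt values, and the log2 fold changes were -3.44 ± 0.17 and -3.44 ± 0.32. Maff, a small Maf factor, was one of the 4 that rose, with FPKM of 5.93, 5.34 and 5.60 in Unt and 13.7, 15.9 and 16.996 in DOX (log2 1.32 ± 0.10, 0.08 and not called with TPM scaling). MAPK feedback genes, which encode the phosphatases and Sprouty proteins that restrain ERK, followed the same direction. Of 12 such genes, 1 was higher and 11 lower (median log2 -1.06, -1.97 with TPM scaling). Spred2 and Spry2 had log2 fold changes of -2.14 ± 0.11 and -1.91 ± 0.09, while the phosphatase Dusp4 had FPKM of 2.47, 2.04 and 2.57 in Unt and 6.13, 5.66 and 4.48 in DOX (log2 0.93 ± 0.12, -0.13 and not called with TPM scaling, and not called in the fit of all 12 libraries).

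Genes of NF-kB, TGF-beta and BMP signalling, many of them brakes on their own pathways, were mostly lower as well. Of 14 NF-kB subunits and inhibitors, 1 was higher, 11 lower and 2 not called, with a median log2 fold change of -0.81 (-1.85 with TPM scaling). Nfkbia, the inhibitor that holds NF-kB in the cytoplasm, had FPKM of 41.4, 39.1 and 39.6 in Unt and 3.85, 1.74 and 2.42 in DOX, a 15.0-fold fall with no overlap. The subunits Rela and Relb had log2 fold changes of -1.27 ± 0.10 and -1.29 ± 0.10, and the kinase Ikbkb was the member that rose (log2 0.69 ± 0.10, but -0.40 with TPM scaling and -0.07 with summed-read scaling). Of 14 feedback genes of TGF-beta, BMP and Notch, 1 was higher, 11 lower and 2 not called, at a median of -1.34 on the log2 scale (-2.39 with TPM scaling). Id2 and Smad6, targets and inhibitors of BMP signalling, had log2 fold changes of -1.83 ± 0.12 and -1.77 ± 0.13. Ltbp1, which stores latent TGF-beta in the matrix, rose from 35.0, 37.3 and 40.8 FPKM to 129, 150.3 and 174 (log2 1.97 ± 0.12). The summed share of reads of this list was 0.138% in Unt and 0.124% in DOX.

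Most listed families of transcription factors had more lower than higher genes. Of 11 Krüppel-like factors, none was higher, 10 lower and 1 not called (median log2 -1.15, -2.08 with TPM scaling), and their summed share of reads was 0.049% ± 0.000285 in Unt and 0.00744% ± 0.00218 in DOX (SD, n = 3). Klf4, a factor that restrains proliferation, had FPKM of 25.6, 28.7 and 27.5 in Unt and 3.69, 1.89 and 1.25 in DOX, and Klf6 had FPKM of 12.9, 14.1 and 14.3 in Unt and 2.84, 2.29 and 2.52 in DOX. Neither gene overlapped between the groups. Of 219 Zfp zinc finger genes, most of which encode DNA-binding repressors, 11 were higher, 175 lower and 33 not called, with a median log2 fold change of -0.91 (-1.67 with TPM scaling). Zfp213 and Zfp146 were the furthest below Unt by FPKM among those named (log2 -2.31 ± 0.12 and -2.48 ± 0.11), and Zfp326, a splicing-associated protein, was one of the 11 higher (log2 1.08 ± 0.13, -0.10 with TPM scaling). Of 13 circadian clock genes, none was higher, 11 lower and 2 not called, at a median of -1.09 on the log2 scale (-1.87 with TPM scaling), with log2 fold changes of -1.92 ± 0.11 for Ciart and -1.79 ± 0.12 for Bhlhe40, both repressors of the clock. Of 11 cardiac and muscle transcription factors, 2 were higher, 7 lower and 2 not called (median log2 -0.84, -2.05 with TPM scaling). Gata4, a factor of the early heart, had FPKM of 9.66, 10.3 and 10.8 in Unt and 4.93, 2.95 and 2.17 in DOX and Twist1, which keeps precursors from differentiating, fell by 1.93 on the log2 scale. Tead2 rose (log2 1.28 ± 0.10, -0.04 with TPM scaling). Of 39 HOX genes 2 were measured, of which 1 was lower and 1 was not called.

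The protein domain that the files give for each gene gave another grouping of families. Of 48 genes labelled with a C2H2 zinc finger, 43 were lower and none was higher (median log2 -1.15, with 1 higher and 39 lower under quantile normalization). SCAN domain factors were lower for 20 of 21, Fork_head factors for 16 of 21, KRAB zinc fingers for 92 of 119, BTB proteins for 51 of 66 and homeobox factors for 17 of 22. Helix-loop-helix factors were lower for 22 of 34 and higher for 8 (median -0.50). HMG box proteins were divided, with 15 of 30 lower and 11 higher (median -0.31). This is 50% lower and 36.7% higher, against 41.7% and 42.7% of all genes tested. Of the KRAB genes 61, and of the 219 Zfp genes 77, were under 1 FPKM in every DOX library. The same held for 16 C2H2, 14 BTB, 7 SCAN, 7 homeobox and 4 Fork_head genes. Such genes entered the test through Unt alone and had to be lower in DOX as deposited. The medians of SCAN, Fork_head, KRAB, BTB and homeobox genes ranged from -1.22 for SCAN to -0.73 for homeobox, and the medians of all 5 were also below 0 with quantile normalization. They were below 0 with TPM and summed-read scaling too, but these move genes down and could not have raised them. Protein kinases were lower for 137 of 242 and higher for 65 (median -0.42), and kinesin motors lower for 20 of 30 (median -0.69). In the other direction, all 24 genes of the proteasome fold rose (median 1.55) and 30 of 31 histone fold genes did (median 1.15; 14 of the 31 entered the test through DOX alone), with medians of 0.23 and 0.50 under TPM scaling. RNA-binding proteins with an RRM were divided, with 70 of 146 higher and 53 lower (median 0.24, -1.001 with TPM scaling and -0.14 with quantile normalization). Their shares of 47.95% and 36.3% lay near the 42.7% and 41.7% of all genes tested.

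Writers and readers of histone marks mostly fell. Of 34 histone acetyl- and methyltransferases, bromodomain readers and remodellers, 5 were higher and 29 lower, with a median log2 fold change of -1.19 (-2.36 with TPM scaling). The acetyltransferases Kat6a and Kat5 had log2 fold changes of -2.02 ± 0.13 and -1.96 ± 0.09. Smarca4, the ATPase of BAF remodellers, was higher as deposited (log2 1.24 ± 0.12) and lay at -0.11 with TPM scaling. RNA polymerase II, Mediator and TFIID subunits were split, and of 53 genes 21 were higher, 20 lower and 12 not called, at a median of -0.03 on the log2 scale (-1.29 with TPM scaling). These counts are 39.6% and 37.7%, near the 42.7% and 41.7% of all genes tested. Tbp, the TATA-binding protein, fell from 2.71, 2.69 and 2.48 FPKM to 1.17, 0.698 and 0.735 (log2 -0.97 ± 0.12).

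The noncoding RNA 7SK, which holds the elongation kinase P-TEFb inactive together with HEXIM1, LARP7 and MEPCE, had the largest fold change of all genes tested. Rn7sk had FPKM of 3.36, 1.51 and 2.72 in Unt and 1143, 1992 and 2800.2 in DOX. These values stand for 28, 12 and 22 reads in Unt and 5742, 8459 and 10722 reads in DOX, the nearest libraries of the groups lay 339.9-fold apart in FPKM, and the log2 fold change was 9.07 ± 0.31 (adjusted p = 6.6e-07; 7.88 with TPM scaling and 8.29 with quantile normalization). Rn7sk (chr9:78175303-78175633, minus strand, GRCm38, 331 bases) has 5 other near-identical genes in GENCODE M21. 7SK carries no poly(A) tail in its mature form, and the study selected RNA with poly-T beads. The opening stretch of the gene, bases 1 to 100, is shown because it lies in the 5′ hairpin that binds HEXIM1, with the GATC letters that recur in it in capitals:
Rn7sk: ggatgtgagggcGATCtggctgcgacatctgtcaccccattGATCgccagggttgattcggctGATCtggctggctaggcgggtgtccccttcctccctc
All 3 GATC matches of the gene lie in this stretch. The proteins around it moved unequally. Of the 9 genes listed for 7SK and P-TEFb, 3 were higher and 6 lower (median log2 -0.94, -1.92 with TPM scaling). Larp7, which binds the 3′ end of 7SK, had FPKM of 33.5, 33.8 and 29.3 in Unt and 63.7, 78.9 and 80.9 in DOX (log2 1.18 ± 0.12, -0.16 with TPM scaling), and Hexim1 had FPKM of 12.0, 12.5 and 12.7 in Unt and 20.8, 18.9 and 15.8 in DOX (log2 0.53 ± 0.11, but -0.75 with TPM scaling and -0.36 with summed-read scaling, and not called in the fit of 12 libraries). Mepce, which caps 7SK, fell from 14.4, 14.5 and 17.1 FPKM to 4.38, 4.34 and 4.18 (log2 -1.62 ± 0.10), and Ccnt1, the cyclin of P-TEFb, fell by 1.02.

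Genes of the cytosolic ribosome rose without exception on the deposited scale. Of 79 measured, 79 were higher and none lower, with a median log2 fold change of 1.61 (0.24 with TPM scaling and -0.12 with quantile normalization), so that their direction as a family turned under quantile normalization. Their share of reads was 4.29% ± 0.0966 in Unt and 7.30% ± 0.279 in DOX (SD, n = 3). Rplp0, of the ribosomal stalk, had FPKM of 948, 1101 and 1043 in Unt and 3826, 4965 and 4899.9 in DOX, and Rpl41 and Rpl37a had log2 fold changes of 2.20 ± 0.15 and 2.20 ± 0.14. All DOX libraries lay above all Unt libraries in these genes. The change of Rplp0 was 0 with quantile normalization, which returns 0 for a gene that keeps its rank and so does not measure its rise. Factors that serve the ribosome did not follow as a block. Of 63 initiation and elongation factors, 37 were higher, 19 lower and 7 not called, at a median of 0.39 on the log2 scale (-0.83 with TPM scaling, -0.47 with summed-read scaling and -0.19 with quantile normalization). Eif5a, an elongation factor, and Eif4g1, the scaffold of cap-dependent initiation, rose (log2 2.13 ± 0.15 and 1.97 ± 0.12), whereas Eif4b, a cofactor of the eIF4A helicase, fell from 121, 123 and 126 FPKM to 31.7, 32.7 and 34.6 and Eif1, which scans for the start codon, fell from 185, 205 and 205 to 50.9, 60.8 and 62.9. Of 20 cytosolic aminoacyl-tRNA synthetases, 16 were higher, 1 lower and 3 not called (median log2 0.61, -0.74 with TPM scaling, -0.32 with summed-read scaling and -0.69 with quantile normalization). Of 27 RNA polymerase I and nucleolar genes, 12 were higher, 11 lower and 4 not called, with a median log2 fold change of -0.02 (-1.22 with TPM scaling), with Nop10 higher (log2 2.27 ± 0.12) and Wdr43 and Polr1c lower (-1.99 ± 0.09 and -1.94 ± 0.10). The shares of this list, 44.4% higher and 40.7% lower, lay near those of all genes tested (42.7% and 41.7%).

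Nuclear genes of the respiratory chain rose almost as uniformly. Of 77 measured subunits, 75 were higher, 1 lower and 1 not called, at a median of 1.56 on the log2 scale (0.29 with TPM scaling), and their share of reads was 0.957% ± 0.0277 in Unt and 1.69% ± 0.0439 in DOX (SD, n = 3). Cox7b, of complex IV, had FPKM of 58.0, 55.9 and 56.5 in Unt and 244, 342 and 344 in DOX, and Uqcrh, of complex III, had FPKM of 43.8, 43.1 and 45.3 in Unt and 206, 266 and 242 in DOX. The lowest DOX value was 4.20 times the highest Unt value for Cox7b and 4.54 times for Uqcrh. The mitochondrial ribosome did not rise with it. Of 76 mitochondrial ribosomal proteins, 38 were higher, 27 lower and 11 not called (median log2 0.24, -1.04 with TPM scaling, -0.65 with summed-read scaling and -0.05 with quantile normalization), with Mrps21 at 2.01 ± 0.12 and Mrpl44 at -2.47 ± 0.13, and their share of reads was 0.367% ± 0.00918 in Unt and 0.277% ± 0.00441 in DOX (SD, n = 3). The mRNAs made in the mitochondrion itself diverged. Of 13, 7 were higher, 2 lower and 4 not called, with a median log2 fold change of 0.39 (-0.82 with TPM scaling, -0.50 with summed-read scaling and -0.71 with quantile normalization). mt-Co1 had FPKM of 2497, 3389 and 2755 in Unt and 13119.9, 15419 and 15804 in DOX (log2 2.37 ± 0.19, 0 with quantile normalization), while mt-Cytb, of complex III, had FPKM of 1266, 1452 and 1239.5 in Unt and 932, 874 and 742 in DOX (log2 -0.64 ± 0.14). mt-Nd2, of complex I, had FPKM of 452, 516 and 461 in Unt and 429, 367 and 266 in DOX (log2 -0.45 ± 0.17, adjusted p = 0.033, a call lost on leaving out any library but DOX replicate 1, at -0.49 to -0.26), and mt-Atp6, of the ATP synthase, was uneven among DOX libraries with FPKM of 10.1, 10.7 and 10.4 in Unt and 72.9, 26.4 and 18.9 in DOX.

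The mitochondrial ribosomal RNAs rose more than any of the 13 mRNAs. mt-Rnr1, of the small subunit, had FPKM of 168, 162 and 179.6 in Unt and 5514, 7272 and 7253 in DOX, and mt-Rnr2, of the large subunit, had FPKM of 112, 103 and 101 in Unt and 3226, 4485 and 4291 in DOX. The nearest libraries of the groups differed 30.7-fold and 28.7-fold, with log2 fold changes of 5.28 ± 0.15 and 5.22 ± 0.15, and 3.92 and 3.85 with TPM scaling. The pair took 0.0445% ± 0.00197 (SD, n = 3) of the reads in Unt and 0.882% ± 0.0662 (SD, n = 3) in DOX. Of 13 mitochondrial tRNA genes 8 were higher and none was lower (median 0.87, and 0.15 with 5 higher and 4 lower under TPM scaling). mt-Ty, the tRNA for tyrosine, rose from 5.34, 6.23 and 4.28 FPKM to 118, 80.3 and 47.7.

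Glycolytic enzymes rose while the gates of the pathway fell. Of 17 genes, 14 were higher and 3 lower, at a median of 1.81 on the log2 scale (0.47 with TPM scaling). Pkm had FPKM of 359.9, 387 and 414 in Unt and 1789, 2049 and 2124 in DOX, and Pgam1 and Ldha, which act beside it at the end of the pathway, had log2 fold changes of 2.44 ± 0.14 and 2.19 ± 0.13. Slc2a1, the glucose transporter GLUT1, fell from 24.4, 24.4 and 24.8 FPKM to 6.20, 4.74 and 4.73 (log2 -2.04 ± 0.11), and Hk2, which traps glucose in the cell, fell from 13.0, 13.6 and 13.8 to 3.52, 2.70 and 1.98 (log2 -1.97 ± 0.14). In every DOX library Pkm lay above all Unt libraries, and Slc2a1 and Hk2 lay below them. Gapdh had FPKM of 2.02, 2.40 and 2.13 in Unt and 112, 2.15 and 85.8 in DOX, so its groups overlapped although it was called (log2 3.30 ± 1.13, adjusted p = 0.021). The call was lost without DOX replicate 1 (2.38), DOX replicate 3 (2.57) or Unt replicate 3 (3.29), and with TPM or summed-read scaling (2.22 and 2.55). It shares near-identical sequence with 145 other genes, 140 of them pseudogenes, and its level is uncertain.

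Actin and matrix genes had the highest medians of the lists as deposited. Of 24 actin and contractile genes, 22 were higher, 1 lower and 1 not called (median log2 1.97, 0.62 with TPM scaling), and their share of reads was 1.53% ± 0.098 in Unt and 3.16% ± 0.115 in DOX (SD, n = 3). Acta2, the smooth muscle actin, had FPKM of 262, 295 and 323 in Unt and 1482, 1980.0 and 2032 in DOX, and the tropomyosin Tpm1 had FPKM of 62.8, 74.1 and 76.3 in Unt and 367, 503 and 521 in DOX. Myl12a, a regulatory light chain of myosin, rose by a log2 of 2.60 ± 0.14. Actb, often used as a reference gene, had FPKM of 416, 481 and 487 in Unt and 1238, 1525 and 1737 in DOX (log2 1.69 ± 0.15, but -0.29 with quantile normalization). Of 16 collagens, 16 were higher and none lower, with a median log2 fold change of 1.64 (0.34 with TPM scaling), led by Col4a1 (2.14 ± 0.11) and Col4a5 (2.12 ± 0.11) of the basement membrane and Col5a2 (2.07 ± 0.11) of fibrils. Of 19 matrix proteins, proteases and inhibitors, 16 were higher, 2 lower and 1 not called, at a median of 1.95 on the log2 scale (0.78 with TPM scaling). Lox, which crosslinks collagen, had FPKM of 54.9, 52.6 and 49.9 in Unt and 315, 401 and 443 in DOX. Spp1, osteopontin, rose by a log2 of 2.65 ± 0.14. Of 11 tubulins, 8 were higher, none lower and 3 not called (median log2 0.63, -0.65 with TPM scaling, -0.26 with summed-read scaling and -0.38 with quantile normalization), and their summed share of reads was 0.410% in Unt and 0.408% in DOX (exact permutation p = 1).

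Enzymes that remove peroxide rose together. Of 13 peroxidases, superoxide dismutases and catalase, 13 were higher and none lower, with a median log2 fold change of 1.89 (0.63 with TPM scaling). Prdx1, a thiol peroxidase, had FPKM of 101, 109 and 107 in Unt and 483, 672 and 661 in DOX, and Gpx1, a selenium peroxidase, had FPKM of 126, 141 and 153 in Unt and 606, 833 and 833 in DOX. No library of DOX overlapped Unt in either. Targets of NRF2, the factor that induces antioxidant genes, were divided by gene. Of 21, 15 were higher, 5 lower and 1 not called, at a median of 1.26 on the log2 scale (-0.03 with TPM scaling). The thioredoxin Txn1 and the ferritin light chain Ftl1 rose (log2 2.44 ± 0.12 and 2.35 ± 0.14), while Hmox1, which degrades haem and releases iron, had FPKM of 33.2, 39.0 and 40.2 in Unt and 16.7, 10.6 and 6.81 in DOX (log2 -1.71 ± 0.25). Slc7a11, the cystine importer, and Txnrd1, which reduces thioredoxin, also fell (log2 -1.25 ± 0.10 and -0.54 ± 0.09). Of 19 genes of iron uptake, storage and export, 10 were higher, 7 lower and 2 not called (median log2 0.82, -0.32 with TPM scaling). Both metallothioneins measured of 3 listed were higher (median 1.32, and 0.35 with TPM scaling).

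Protein folding and turnover genes rose in most of their lists on the deposited scale. Of 12 chaperonin and prefoldin subunits, 11 were higher and 1 lower, with a median log2 fold change of 1.43 (0.07 with TPM scaling), and of 17 heat shock proteins, 14 were higher, 2 lower and 1 not called, at a median of 1.35 on the log2 scale (0.00 with TPM scaling). Hsp90aa1 and the small heat shock protein Cryab had log2 fold changes of 2.51 ± 0.15 and 2.46 ± 0.14, Hsp90ab1 had 1.96 ± 0.14 (-0.05 with quantile normalization), and Dnajb1, a cofactor induced by heat shock, fell from 18.7, 16.5 and 18.3 FPKM to 5.76, 4.91 and 3.48. Of 24 genes of the endoplasmic reticulum, 15 were higher, 5 lower and 4 not called (median log2 1.36, 0.03 with TPM scaling). Its chaperones and its sensors lay apart. Calr and Pdia3, which fold glycoproteins, rose (log2 2.33 ± 0.14 and 2.47 ± 0.13), while Herpud1, of the degradation complex, had FPKM of 41.7, 47.3 and 48.7 in Unt and 5.34, 4.18 and 4.00 in DOX, and the sensor Ern1 and its target Xbp1 fell (log2 -1.52 ± 0.11 and -1.99 ± 0.10). Of 36 proteasome subunits, 32 were higher, 1 lower and 3 not called, with a median log2 fold change of 1.14 (-0.14 with TPM scaling), with Psmd2 at 2.16 ± 0.13 and Psmd1 at 2.08 ± 0.12. Of 25 genes of the lysosome, 22 were higher, 1 lower and 2 not called, at a median of 1.53 on the log2 scale (0.18 with TPM scaling), with the cathepsins Ctsl (2.25 ± 0.11) and Ctsd (2.25 ± 0.12) and the membrane protein Lamp2 (2.26 ± 0.12) in front. Autophagy genes were split, with 47.8% higher and 34.8% lower against 42.7% and 41.7% of all genes tested. Of 23, 11 were higher, 8 lower and 4 not called (median log2 0.24, -0.94 with TPM scaling and -0.58 with summed-read scaling). Map1lc3b, which coats autophagosomes, rose (log2 1.72 ± 0.09), and the cargo receptor Sqstm1 fell from 169, 175 and 183 FPKM to 114, 109 and 107.

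**Figure D3:**
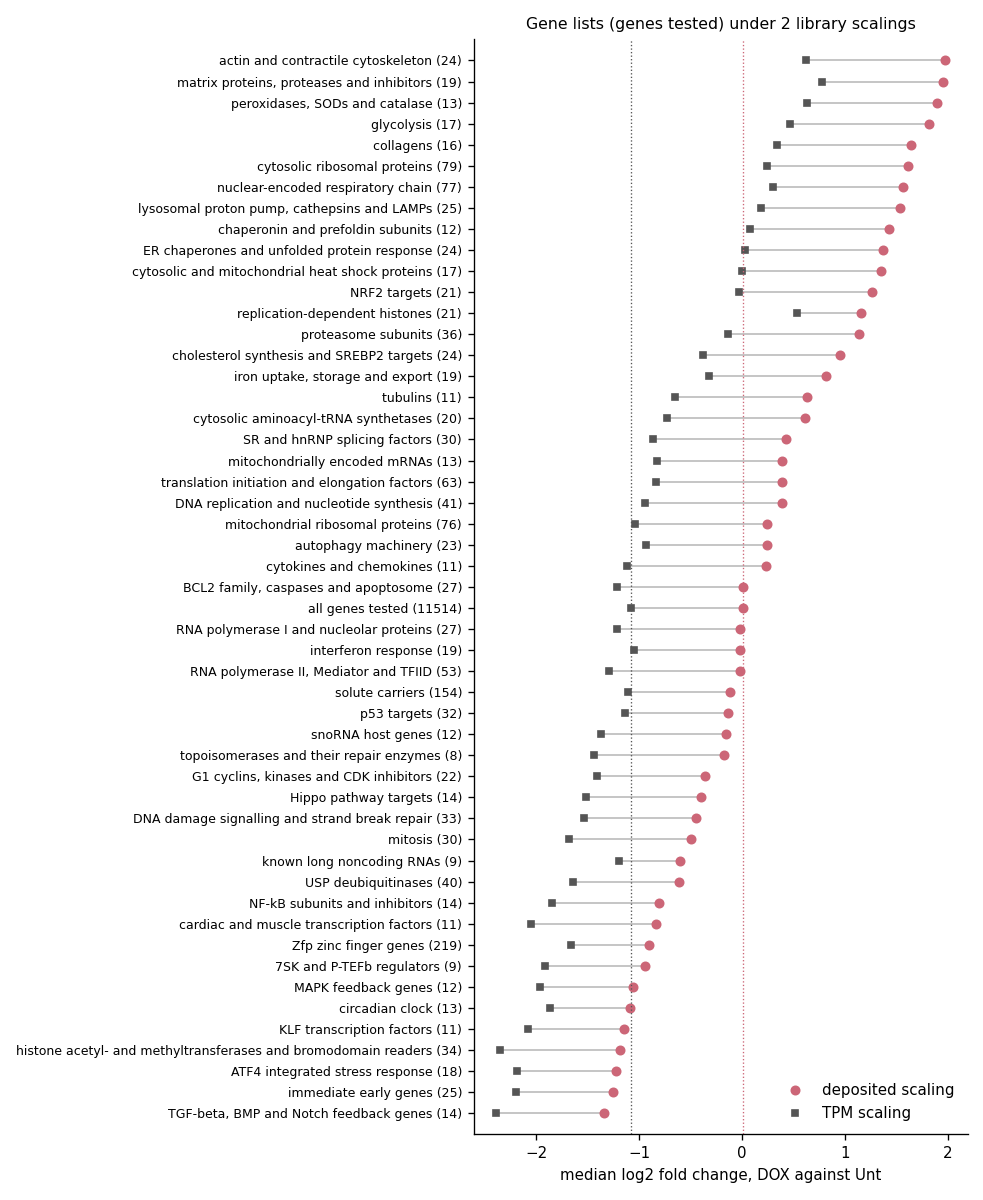
Median log2 fold change of DOX against Unt (x axis) for each gene list (y axis, number of genes tested in brackets), with circles for the deposited scaling, squares for TPM scaling and dotted lines at the medians of all genes tested. Actin, matrix and peroxidase genes lie above 0 under both scalings, and feedback genes, immediate early genes and histone-modifying genes lie below 0 under both.

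The direct target of DOX and the p53 response were examined gene by gene. Top2a, the topoisomerase II of dividing cells, had FPKM of 68.9, 59.8 and 56.2 in Unt and 50.2, 53.5 and 57.4 in DOX, which overlapped (log2 -0.19 ± 0.11, adjusted p = 0.12), although it was called lower under each of the 3 other scalings (-1.53 with TPM scaling). Top2b, the isoform of resting and heart cells, had FPKM of 8.76, 6.90 and 5.98 in Unt and 10.6, 13.6 and 14.0 in DOX (log2 0.74 ± 0.15) and Top1 had FPKM of 6.32, 6.16 and 4.68 in Unt and 9.94, 11.5 and 11.7 in DOX (log2 0.85 ± 0.12). Both were higher as deposited and turned to -0.49 and -0.36 with TPM scaling. Tdp2, which frees DNA ends from trapped topoisomerase II, fell from 9.43, 9.69 and 8.07 FPKM to 3.87, 3.15 and 3.63 (log2 -1.14 ± 0.11). Of the 8 topoisomerases and their repair enzymes, 2 were higher, 3 lower and 3 not called, with a median log2 fold change of -0.18 (-1.44 with TPM scaling).

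Trp53, which encodes p53, had FPKM of 56.6, 57.8 and 65.5 in Unt and 57.0, 69.8 and 72.8 in DOX (log2 0.14 ± 0.12, adjusted p = 0.27), so no change passed the test on the deposited scale, whereas it was called lower at -1.20 with TPM scaling and -1.07 with quantile normalization. Without DOX replicate 1 it was called higher (0.25). Its targets did not move one way. Of 32, 9 were higher, 15 lower and 8 not called, at a median of -0.14 on the log2 scale (-1.14 with TPM scaling and 0.13 with quantile normalization). Cdkn1a, the cell cycle inhibitor p21, was uneven in DOX, with FPKM of 8.37, 7.81 and 8.76 in Unt and 23.8, 9.05 and 6.49 in DOX (log2 0.40 ± 0.36, adjusted p = 0.31; -0.82 and not called with TPM scaling). DOX replicate 1 held the high value, and without it the log2 fold change was -0.10, whereas without DOX replicate 3 it was 0.76 and called. Mdm2, the ligase that degrades p53, had FPKM of 9.74, 9.93 and 9.501 in Unt and 6.87, 3.56 and 3.16 in DOX (log2 -1.02 ± 0.21), and Gdf15, a secreted stress hormone, had FPKM of 18.2, 18.7 and 21.3 in Unt and 7.97, 3.37 and 2.24 in DOX (log2 -2.02 ± 0.31). Both were lower in every DOX library, with replicate 1 nearest to Unt. Plk2, a kinase that p53 induces, fell by 2.85 on the log2 scale, whereas Perp, a membrane protein of cell junctions, and Rps27l, a ribosomal protein paralogue, rose (log2 2.04 ± 0.12 and 1.67 ± 0.10; Rps27l at 0.08 and not called with quantile normalization).

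Genes of cell death were divided much as all genes tested were, with 44.4% higher and 37.0% lower against 42.7% and 41.7%. Of 27 members of the BCL2 family, caspases and the apoptosome, 12 were higher, 10 lower and 5 not called (median log2 0.01, -1.22 with TPM scaling and -0.85 with summed-read scaling). Mcl1, a short-lived protector from apoptosis, had FPKM of 38.5, 41.2 and 39.7 in Unt and 12.1, 6.68 and 3.89 in DOX (log2 -2.37 ± 0.29). Bbc3, which encodes the death-promoting PUMA, moved the same way with FPKM of 7.04, 6.84 and 7.05 in Unt and 1.40, 0.954 and 0.529 in DOX (log2 -2.05 ± 0.15). Cycs, which encodes the cytochrome c of the apoptosome, and Casp12, a caspase of the endoplasmic reticulum, were higher under each of the 4 scalings (log2 2.12 ± 0.11 and 1.57 ± 0.14). Aifm1, a flavoprotein of the mitochondrial space, rose (log2 1.45 ± 0.11, 0.12 and not called with TPM scaling).

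Genes that signal and mend strand breaks were lower more often than higher. Of 33, 7 were higher, 21 lower and 5 not called, with a median log2 fold change of -0.45 (-1.54 with TPM scaling). Rnf168, the ubiquitin ligase that marks chromatin at breaks, had FPKM of 13.3, 13.0 and 13.1 in Unt and 2.39, 1.96 and 1.76 in DOX, and the scaffold Mdc1 had FPKM of 25.8, 26.0 and 25.8 in Unt and 8.14, 5.94 and 5.34 in DOX. Neither overlapped, and the log2 fold changes were -2.22 ± 0.10 and -1.86 ± 0.13. Xrcc5, which encodes the Ku80 subunit that binds DNA ends, was higher as deposited (log2 1.08 ± 0.12) and lay at -0.22 with TPM scaling. Of 41 genes of DNA replication, 24 were higher, 10 lower and 7 not called, at a median of 0.38 on the log2 scale (-0.95 with TPM scaling, -0.54 with summed-read scaling and -0.28 with quantile normalization). Cdt1, which licenses origins and is present before S phase, had FPKM of 48.2, 49.3 and 54.3 in Unt and 6.92, 3.82 and 2.40 in DOX, an 11.6-fold fall, while Rpa3, of the single strand binding complex, rose (log2 1.98 ± 0.11).

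Mitotic genes were mostly lower. Of 30, 9 were higher, 16 lower and 5 not called (median log2 -0.50, -1.68 with TPM scaling), and their share of reads was 0.443% ± 0.0344 in Unt and 0.194% ± 0.0017 in DOX (SD, n = 3). The kinase Plk1 had FPKM of 50.8, 53.4 and 59.0 in Unt and 11.4, 8.51 and 9.12 in DOX (log2 -2.38 ± 0.12), and Ccnb1, cyclin B1, had FPKM of 37.1, 38.8 and 37.9 in Unt and 10.8, 13.4 and 12.4 in DOX (log2 -1.57 ± 0.10). Ccnb2 lay on the other side of Unt (log2 1.17 ± 0.10) but at -0.17 with TPM scaling. Of 22 genes of the G1 phase, 5 were higher, 13 lower and 4 not called, with a median log2 fold change of -0.36 (-1.41 with TPM scaling). Ccnd1, cyclin D1, had FPKM of 42.5, 51.9 and 57.4 in Unt and 195, 242 and 266 in DOX, its partner Cdk4 had a log2 fold change of 1.68 ± 0.13, and the inhibitors encoded at the Ink4 locus diverged, with FPKM of 371, 393 and 403 in Unt and 1655, 2286 and 2325 in DOX for Cdkn2a and FPKM of 22.3, 22.9 and 23.3 in Unt and 4.73, 2.74 and 2.54 in DOX for Cdkn2b. Replication-dependent histone genes, whose mRNAs mostly end in a stem loop in place of a poly(A) tail, were mostly too low to be tested. Of 67 listed 21 were tested, of which 21 were higher and none lower, at a median of 1.15 on the log2 scale (0.53 with TPM scaling). Of these 21 genes, 15 were under 1 FPKM in every Unt library and so entered the test through DOX alone, where they had to be higher. Their summed share of reads was 0.00584% in Unt and 0.0121% in DOX.

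Sterol genes moved in both directions. Of 24 genes of cholesterol synthesis, 15 were higher, 7 lower and 2 not called (median log2 0.95, -0.38 with TPM scaling). Idi1, Hsd17b7 and Acat2 rose (log2 3.01 ± 0.11, 2.13 ± 0.11 and 2.05 ± 0.11), whereas Sqle, a rate-limiting epoxidase, had FPKM of 57.6, 60.2 and 61.1 in Unt and 15.9, 12.6 and 10.2 in DOX and Hmgcs1 and Msmo1 fell by 0.99 and 1.11 on the log2 scale. The remaining lists differed in direction. Of 154 solute carriers, 66 were higher, 68 lower and 20 not called, with a median log2 fold change of -0.12 (-1.11 with TPM scaling and 0.09 with quantile normalization). Their shares of 42.9% and 44.2% lay near the 42.7% and 41.7% of all genes tested. Of 40 USP deubiquitinases, 7 were higher, 27 lower and 6 not called, at a median of -0.62 on the log2 scale (-1.65 with TPM scaling). Of 30 splicing factors of the SR and hnRNP families, 16 were higher, 6 lower and 8 not called (median log2 0.43, -0.87 with TPM scaling, -0.47 with summed-read scaling and -0.37 with quantile normalization). Of 14 Hippo pathway targets, 4 were higher, 7 lower and 3 not called, with a median log2 fold change of -0.40 (-1.52 with TPM scaling). Of 11 cytokines and chemokines, 5 were higher, 5 lower and 1 not called, at a median of 0.23 on the log2 scale (-1.12 with TPM scaling, -0.71 with summed-read scaling and -0.95 with quantile normalization). Of 19 interferon response genes, 7 were higher, 6 lower and 6 not called (median log2 -0.02, -1.05 with TPM scaling). The shares higher and lower were 45.45% and 45.45% for cytokines and 36.8% and 31.6% for interferon genes. They compare with 42.7% and 41.7% of all genes tested.

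Noncoding and pseudogene classes differed in direction. Of 724 processed pseudogenes, which are copies of mRNAs and of which 90 entered the test through DOX alone, 568 (78.5%) were higher and 59 lower (median 1.16, and 0.14 with 254 higher and 180 lower under TPM scaling), and they took 0.859% of the reads in Unt and 1.49% in DOX. Of 133 lincRNAs 40 were higher and 51 lower, which turned to 58 and 34 with quantile normalization and was 12 and 99 with TPM scaling. Of 121 antisense genes 33 were higher and 43 lower, which likewise turned to 52 and 32 with quantile normalization and was 5 and 91 with TPM scaling. Of 71 snoRNAs 10 were higher and 26 lower (16 and 19 with quantile normalization, 6 and 42 with TPM scaling). The summed share of antisense genes was 0.115% in Unt and 0.0524% in DOX. Whether the counting used strand is not given in the sources used here, and if it did not, antisense reads cannot be told apart from those of the gene opposite. Gm10123, a processed pseudogene, had FPKM of 155, 202 and 181 in Unt and 3234, 4766 and 4536 in DOX (log2 4.52 ± 0.18). It is identical over 490 bases to Ppia, the cyclophilin A gene, chosen here after its values were seen, which had FPKM of 179.8, 218 and 207 in Unt and 589, 854 and 855 in DOX. The rise of the copy was steeper than that of its parent, and the assignment of reads between them is uncertain.

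Long noncoding RNAs of nuclear bodies diverged. Of 9 known long noncoding RNAs, 3 were higher, 5 lower and 1 not called, with a median log2 fold change of -0.61 (-1.19 with TPM scaling). Malat1, an abundant RNA of nuclear speckles, had FPKM of 48.3, 46.8 and 40.1 in Unt and 222, 299.8 and 352 in DOX, and Neat1, the scaffold of paraspeckles, had FPKM of 28.4, 27.9 and 23.2 in Unt and 6.39, 5.32 and 5.05 in DOX. Malat1 was higher and Neat1 lower in every DOX library, with log2 fold changes of 2.64 ± 0.17 and -2.06 ± 0.12. Of 12 snoRNA host genes, 3 were higher, 6 lower and 3 not called, at a median of -0.16 on the log2 scale (-1.37 with TPM scaling), and Snhg5 fell from 23.9, 24.2 and 17.9 FPKM to 1.90, 1.49 and 1.20. The lincRNA 2900097C17Rik fell from 25.3, 25.4 and 25.02 to 4.32, 3.54 and 2.67. Snord49a, a guide RNA for methylation of rRNA, had 35, 17 and 19 reads in Unt and 0, 1 and 0 in DOX. The small genes Mir186 and Mir31 had 13 to 52 reads in Unt and at most 7 in DOX, so their fold changes rest on few reads. Scarna2 and Gm23119, named after their values were seen, went the other way, with at most 4 reads in Unt and at least 19 in DOX.

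Near-identical genes of 57 bases led the class labelled miRNA, and they were chosen after their values were seen. Whether they yield miRNAs was not tested. Gm23935 (chr16:11144125-11144181, plus strand, opposite Zc3h7a) had FPKM of 6777, 6776 and 6761 in Unt and 39539.9, 66681 and 66220.1 in DOX (log2 3.04 ± 0.25, 0 with quantile normalization). It held 92.4% to 93.6% of the reads of the class in Unt and 97.4% to 98.5% in DOX. Gm24270 (chr9:56223715-56223771, minus strand), which is identical in sequence and lies within Peak1, had FPKM of 112, 116 and 113 in Unt and 718, 686 and 632 in DOX (log2 2.57 ± 0.10). Gm24187 (chr13:9834469-9834525, minus strand) differs from both by the base in capitals and had 2, 1 and 2 reads in Unt and 8, 5 and 16 in DOX. The sequences, from the GRCm38 annotation of GENCODE M21, are shown because reads cannot be assigned between genes this alike:
Gm23935: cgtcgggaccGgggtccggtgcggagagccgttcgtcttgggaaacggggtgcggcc
Gm24187: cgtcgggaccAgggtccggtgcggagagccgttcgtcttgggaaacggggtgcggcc
The class labelled miRNA took 0.0562% of the reads in Unt and 0.230% in DOX, although of its 48 genes 11 were higher, 10 lower and 27 not called.

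**Figure D4:**
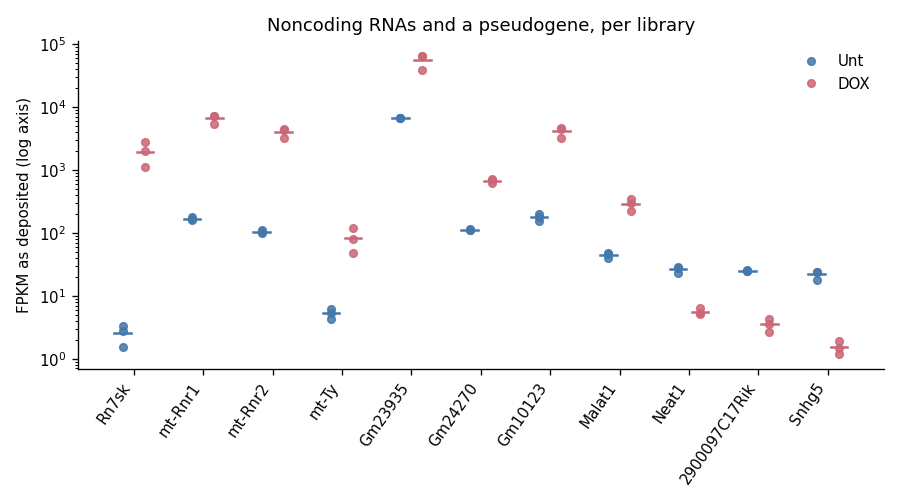
FPKM as deposited (y axis, log scale) of noncoding RNAs and the pseudogene Gm10123, with 1 point per library, Unt in blue and DOX in red, and lines at the group means. Rn7sk rises from at most 3.36 to at least 1143 FPKM, both mitochondrial rRNAs rise without overlap, and Neat1, 2900097C17Rik and Snhg5 fall.

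The direction of change ran with the level of the gene. Genes with a mean of under 2 FPKM over the 6 libraries had a median log2 fold change of -0.46, those at 2 to 5 FPKM -0.57, those at 5 to 20 FPKM -0.10, those at 20 to 100 FPKM 1.10 and those over 100 FPKM 1.78. Of the 653 genes over 100 FPKM, 97.6% were higher and 1.69% lower. With TPM scaling the medians were -1.18, -1.56, -1.31, -0.24 and 0.42, so the order held apart from the lowest group while the sign of the 20 to 100 group turned, and with quantile normalization they lay between -0.12 and 0.24. The level includes the DOX libraries, which favours higher genes in the upper groups.

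Longer protein-coding genes had lower fold changes, and also lower levels. The median was 0.46 for genes spanning under 5 kb, 0.09 for 5 to 20 kb, -0.09 for 20 to 50 kb, -0.39 for 50 to 100 kb, -0.48 for 100 to 200 kb and -0.50 over 200 kb, as the median level declined from 12.7 to 3.26 FPKM. Among genes with a mean of at least 5 FPKM the medians were 0.91, 0.51, 0.29, 0.15, 0.32 and 0.36. Within genes of 5 to 20 FPKM they ran from -0.39 (50 to 100 kb) to 0.08 (over 200 kb), and within those of 20 to 100 FPKM from 0.92 (20 to 50 kb) to 1.34 (100 to 200 kb). No steady decline with span was left at a matched level.

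**Figure D5:**
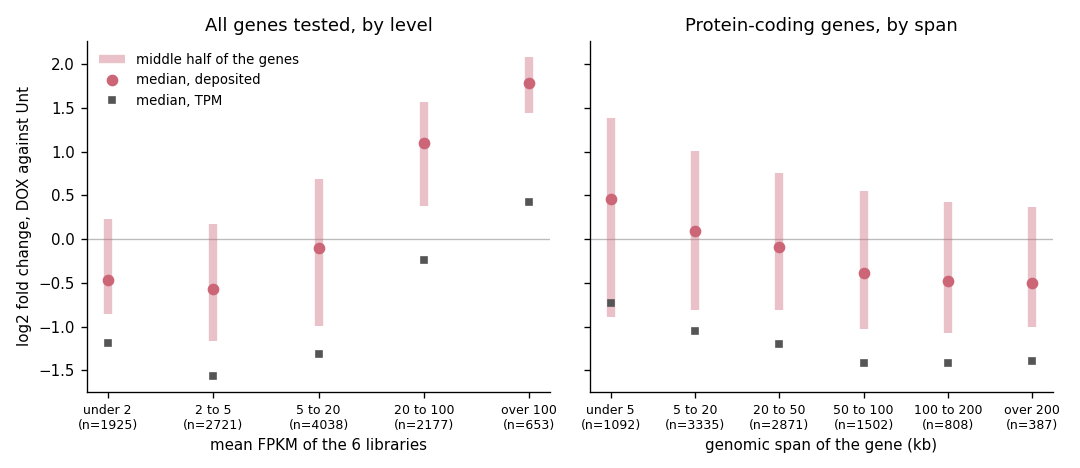
Log2 fold change of DOX against Unt (y axis) by the mean FPKM of the gene (left) and by its genomic span (right, protein-coding genes), with circles at the median and bars over the middle 50% of genes on the deposited scale, and squares at the TPM median. The medians climb from -0.57 to 1.78 between the 2 to 5 FPKM group and the highest group, and decline from 0.46 to -0.50 with span.

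The direction of many genes rested on the scaling. TPM and summed-read scaling move genes down, so that rises can be lost and falls cannot, and the numbers of kept rises and kept falls are not comparable. On the log2(FPKM + 1) scale the move is smaller for low genes. With TPM scaling the median went from -0.46 to -1.18 under 2 FPKM and from 1.78 to 0.42 over 100 FPKM. TPM medians of low and of abundant families are thus not directly comparable. Of the 4911 higher genes, 1525 were higher with TPM scaling, 1394 were not called and 1992 were lower. Under all 4 scalings 1413 of the 11514 genes tested were higher and 3784 lower. The 1413 genes are 28.8% of those higher as deposited. They included 11 of 13 peroxidases and dismutases, 15 of 24 actin genes, 39 of 77 respiratory chain genes and 19 of 79 cytosolic ribosomal proteins. Fewer came from the mitochondrial ribosome (5 of 76) and the cytosolic aminoacyl-tRNA synthetases (1 of 20). The 1413 genes also included 13 of the 21 tested replication-dependent histones, but 15 of these 21 entered the test through DOX alone, which favours a rise. Which scaling is nearest to RNA per cell cannot be told from these files.

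The DOX libraries differed in extent. Genes called higher had a median change against the Unt mean of 0.95 in DOX replicate 1, 1.15 in replicate 2 and 1.20 in replicate 3, and genes called lower had -0.87, -0.996 and -1.04. DOX replicate 1 was the lowest of the 3 for 82.4% of the genes called higher and the highest of the 3 for 60.8% of those called lower. Without it 5114 genes were higher and 4922 lower.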

How the data were processed

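Libraries were grouped by their labels into 3 Unt and 3 DOX. Per the study, RNA was selected with poly-T beads, prepared with a NEBNext kit and read as 150 bp paired ends. HISAT2 2.0.5 and GRCm38/mm10 are credited to the submitters' processing notes, and the counting program and annotation release are not given in the sources used here. The authors deposited FPKM, which hold a library factor. From FPKM and gene length, whole reads were recovered for 100% of values (within 0.05 of a whole read).

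Genes with at least 1 FPKM in 3 of 6 libraries were tested as log2(FPKM + 1) by limma 3.58.1 with a trend in R 4.3.3, with Benjamini-Hochberg adjustment over 11514 genes and a threshold of 0.05. The pseudocount of 1 understates the fold change of low genes. Shares of reads were tested by a two-sided exact permutation test. Tested on simulated data of the same 11514 genes, the fit called 75 of 100 genes planted at a log2 fold change of 1 and 95 of 100 planted at 2. Of unchanged genes, 5.08% had p under 0.05. In the simulation most genes were unchanged and the libraries had no scaling difference. In the data 84.4% of genes were called and the scaling differed, so these rates do not carry over. Alternatives were other scalings, pseudocount 0.1, other filters, voom on the recovered reads, no trend, all 12 libraries, a replicate block, unadjusted p, a 2-fold minimum and each library left out.

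The members, 52 gene lists and 7 marker lists were chosen with earlier results of these data known. Genes named in the text were, per list, up to 3 called rises and falls without overlap and with a mean of at least 5 FPKM in the higher group. To these were added the 10 largest rises and falls of protein-coding genes with a mean of at least 10 FPKM, the 5 largest of other biotypes, the 10 genes with most reads and a set of DOX, p53 and reference genes. A few genes that the rule selects are left out. Genes were taken as near-identical copies at 95% identity over 150 bases in GENCODE M21 (BLAST 2.17.0). Further named genes had such copies, among them Map1lc3b (30), Eif1 (16), Eef1a1 (14), Phgdh (13) and Ctsl (13). Reads of these genes cannot be assigned with certainty either. Domains came from the deposited annotation column with at least 20 genes tested.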

Additional observations from a re-analysis of the deposited data

How the results depend on the processing

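The counts of 4911 higher and 4806 lower genes moved most with the scaling, to 1525 and 8482 with TPM scaling and 2567 and 7374 with summed-read scaling. A mean of at least 5 FPKM left 3937 higher and 2091 lower, and a 2-fold minimum 2722 and 2287. Leaving out 1 library at a time gave 4666 to 5114 higher and 4556 to 4922 lower, and voom on the recovered reads gave 4928 and 4819. Same-numbered libraries did not deviate together (correlations of -0.018, 0.027 and -0.005), and the replicate block gave 4887 higher and 4753 lower. Such correlations can miss a small effect shared by libraries of the same number, so a pairing is not excluded.

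Without the 10 genes with most reads, the gains in share, in percentage points, were 0.718 for glycolysis (1.30 with them), 0.709 for processed pseudogenes (0.629) and 0.619 for chromosome MT (1.54). With a mean of at least 5 FPKM the median log2 fold changes by genomic span, from under 5 kb to over 200 kb, were 0.91, 0.51, 0.29, 0.15, 0.32 and 0.36.

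Of the genes whose fold changes the report gives, those that changed sign with TPM scaling were Shmt2 (-0.31), Trp53 (-1.20), Cdkn1a (-0.82), Dusp4 (-0.13), Ikbkb (-0.40), Smarca4 (-0.11), Larp7 (-0.16), Hexim1 (-0.75), Zfp326 (-0.10), Tead2 (-0.043), Top1 (-0.36), Top2b (-0.49), Xrcc5 (-0.22) and Ccnb2 (-0.17). With summed-read scaling these were Trp53 (-0.79), Cdkn1a (-0.45), Ikbkb (-0.069), Hexim1 (-0.36) and Top2b (-0.12), and with quantile normalization Phgdh (-0.49), Psat1 (-0.26), Shmt2 (-0.70), Trp53 (-1.07), Hsp90ab1 (-0.053) and Actb (-0.29). Without DOX replicate 1, Cdkn1a lay at -0.10, and without DOX replicate 3 at 0.76. Dusp4, Hexim1 and mt-Nd2 were not called in the fit of 12 libraries. These changes follow from the scaling or the libraries entered, and no other cause was tested. Depth limits the genes with few reads, such as Snord49a and Mir186.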
